A study of Mus musculus with 24 samples.

Results

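Lung RNA of unirradiated mice given Su was compared with lung RNA of unirradiated mice that did not receive it, pooled over the presence of Ly. The members are 8 of the study's 24 arrays, chosen by their titles. The 4 arrays with Su are the groups Su (2 arrays) and Ly+Su (2 arrays), and the 4 arrays without it are ctrl (untreated, 2 arrays) and Ly (2 arrays). The study's title concerns the joint inhibition of TGF-beta and PDGF signaling in radiation fibrosis of the lung, and here the question was how lung that had not been irradiated differed with Su. The labels put every sample at day 24 of the irradiation schedule, also the 8 from unirradiated mice, and they give both drugs only by their short names, with no dose, schedule, strain, sex or age. Total RNA of frozen lung tissue was labelled with Cy3 and hybridised to a 1-colour Agilent mouse array. As a check of the tissue, the surfactant gene Sftpc lay between 8.57 and 9.69, the alveolar type I marker Ager between 4.93 and 5.44 and the club cell marker Scgb1a1 between 7.83 and 8.78 on the 8 arrays. These and all levels below are log2 signal minus the 75th percentile of the array, and differences are in log2 units with their standard error. In whole lung a lower level can mean fewer cells of a type or less RNA per cell, and these cannot be told apart.

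Arrays Su 1 and Su 2 stood apart from all other replicate pairs in how little they differed. The design text calls the 2 arrays of each condition biological replicates, and p-values measure the spread between these arrays. Over 15596 genes the robust SD of the difference between Su 1 and Su 2 was 0.12, which was 1.39 times the value that repeated spots within an array predict, against 1.57 to 3.65 times in the other 11 pairs. A difference of more than 2-fold between Su 1 and Su 2 was seen for 20 genes, against 122 to 1880 in the other pairs. Whether both arrays carried the RNA of the same animal was not tested. Every leading count below is therefore also given with Su 1 and Su 2 averaged and counted as 1 sample, so that Su is represented by 3 samples. A further layout holds throughout: the 4 arrays without Su share slide 1, Su 1 and Su 2 lie on slide 2 beside the Imatinib group, and Ly+Su 1 and Ly+Su 2 lie on slide 3 beside Ly+Imatinib. Slide and Su cannot be told apart in the main comparison, whereas Su against Imatinib compares arrays of the same slide, at positions 3 and 4 against 1 and 2.

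Several of the gene groups described below belong to well-studied systems. Cytosolic chaperones such as HSP70 and HSP90 fold other proteins and are transcribed under heat shock factor 1 when misfolded protein accumulates. Their counterparts in the endoplasmic reticulum, led by BiP, are transcribed under the unfolded protein response. The aryl hydrocarbon receptor (AhR) is a ligand-activated factor that drives Cyp1a1, a cytochrome P450 of the lung endothelium and epithelium, and its own repressor Ahrr. PDGF receptors, KIT, CSF1R and the VEGF receptors are related receptor kinases that serve mesenchymal cells, mast cells, macrophages and endothelium.

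Proximal promoters of Hspa1a, Hsph1, Hspb1 and Hspa5 are shown because the heat shock and stress genes fell together. The first 3 had the largest falls of the heat shock list, while Hspa5 did not have the largest of its list. The promoters shown are the 250 bases before the RefSeq start, build GRCm38.p6, 5′ to 3′. The Hsph1 promoter is that of 1 of 2 listed starts. In the first 3, capitals mark GAANNTTC or TTCNNGAA, the paired units of a heat shock element, and in the Hspa5 promoter they mark the endoplasmic reticulum stress element, CCAAT and CCACG with 9 bases between them. Both strands were searched.
Hspa1a, chr17:34972157-34972406, minus strand: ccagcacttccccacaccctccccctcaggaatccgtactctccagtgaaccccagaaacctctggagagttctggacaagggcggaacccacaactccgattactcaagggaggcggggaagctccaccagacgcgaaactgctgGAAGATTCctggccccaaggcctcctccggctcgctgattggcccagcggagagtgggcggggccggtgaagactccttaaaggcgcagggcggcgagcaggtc
Hsph1, chr5:149636316-149636565, minus strand: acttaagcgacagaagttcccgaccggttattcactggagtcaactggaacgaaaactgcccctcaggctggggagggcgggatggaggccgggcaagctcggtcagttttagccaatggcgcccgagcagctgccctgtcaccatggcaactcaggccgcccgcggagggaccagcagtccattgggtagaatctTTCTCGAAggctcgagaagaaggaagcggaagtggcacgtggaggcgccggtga
Hspb1, chr5:135887669-135887918, plus strand: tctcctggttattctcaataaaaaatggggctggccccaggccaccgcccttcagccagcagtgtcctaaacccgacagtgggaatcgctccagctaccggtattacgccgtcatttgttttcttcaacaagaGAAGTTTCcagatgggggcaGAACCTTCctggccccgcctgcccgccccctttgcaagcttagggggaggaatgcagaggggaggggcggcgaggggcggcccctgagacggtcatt
Hspa5, chr2:34771840-34772089, plus strand: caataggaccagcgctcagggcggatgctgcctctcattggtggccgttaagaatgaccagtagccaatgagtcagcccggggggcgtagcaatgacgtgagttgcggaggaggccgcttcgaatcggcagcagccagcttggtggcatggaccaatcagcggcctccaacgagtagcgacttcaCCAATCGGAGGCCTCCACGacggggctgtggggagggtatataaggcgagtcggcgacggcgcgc
One of the paired heat shock units was present in the promoter of 7 of the 10 matched heat shock genes that fell, in 1 of the 4 that did not fall, and in at least 1 promoter of 14.5% of all genes (12.8% of 32851 promoters of this length). The stress element was present in 2 of the 5 matched endoplasmic reticulum genes that fell, namely Hspa5 and Creld2. It was present in 5 of the 15 that did not fall and in 0.13% of all genes (0.113% of promoters). No match was found for Sdf2l1 and Manf, which fell more than Hspa5. The AhR core TNGCGTG was found for 1 of 16 matched AhR list genes, Ahrr, and for 4.76% of all genes (4.1% of promoters). A match of letters describes the window and is not a measured binding site.

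Of 17545 genes tested with limma, 770 (4.39%) differed between the arrays with and without Su at an adjusted p under 0.05. The level was higher with Su for 429 genes (2.45% of those tested) and lower for 341 (1.94%). The median difference over all genes tested was 0.03. The sign was the same in both arms (Su against ctrl, and Ly+Su against Ly) for all 770, which the pooled test favours, and for 70.1% of all genes tested. For 722 of the 770 the 4 arrays with Su did not overlap the 4 without, as they did not for 16.1% of all genes tested. With Su 1 and Su 2 averaged, 3 genes passed, 1 higher and 2 lower (3277 at an unadjusted p under 0.05), and 255 of the 770 passed when this averaged design took its spread from all 12 unirradiated arrays. The count also moved with single arrays: it was 1 without Su 1, 32 without Su 2, 117 without ctrl 2, 156 without Ly+Su 2, 224 without Ly 2 and 445 without Ly+Su 1. Under normexp background correction in place of the scanner's own, 0 genes passed with limma (2053 at an unadjusted p under 0.05). Named outside the naming rule, the 3 genes that passed with the pair averaged were Slc2a2, ENSMUST00000088292 and 1700019A02Rik. Their differences with all 8 arrays were 2.20, -1.49 and -2.34. The verbs rose and fell below refer to the test with all 8 arrays.

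Cyp1a1 had the largest rise of the 429 genes. Its level was -2.67 and -3.60 on the ctrl arrays, -3.27 and -3.68 on the Ly arrays, -0.70 and -0.87 on the Su arrays, and -0.62 and -0.19 on the Ly+Su arrays. The 4 arrays with Su all lay above the 4 without, by 2.71 ± 0.25 (SE, 4 against 4 arrays; 6.56-fold, adjusted p = 0.0114 with limma). Averaging Su 1 and Su 2 gave an adjusted p of 0.0572, and of 0.0185 with the spread of the 12 unirradiated arrays. Under normexp background correction the difference was 1.68. Ahrr, the repressor of AhR, rose by 1.12 ± 0.18 (adjusted p = 0.0233), although it was well above background on 1 of the 4 arrays without Su, and its sign turned to -0.58 under normexp background correction. These were the only 2 of 20 AhR targets and phase I enzymes that passed, and the list's median was -0.05. Of all genes tested 2.45% rose. Beside Imatinib on the same slides, the difference in Cyp1a1 did not pass (-0.52, adjusted p = 0.414). Imatinib against the same 4 ctrl and Ly arrays gave 3.24 (adjusted p = 0.0313). In that comparison 4 genes were higher (0.0223% of 17911) and 0 lower (2493 genes at an unadjusted p under 0.05, limma). In irradiated lung, on other arrays, Cyp1a1 was higher with Su by 2.12 (adjusted p = 0.0178).

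**Figure D1:**
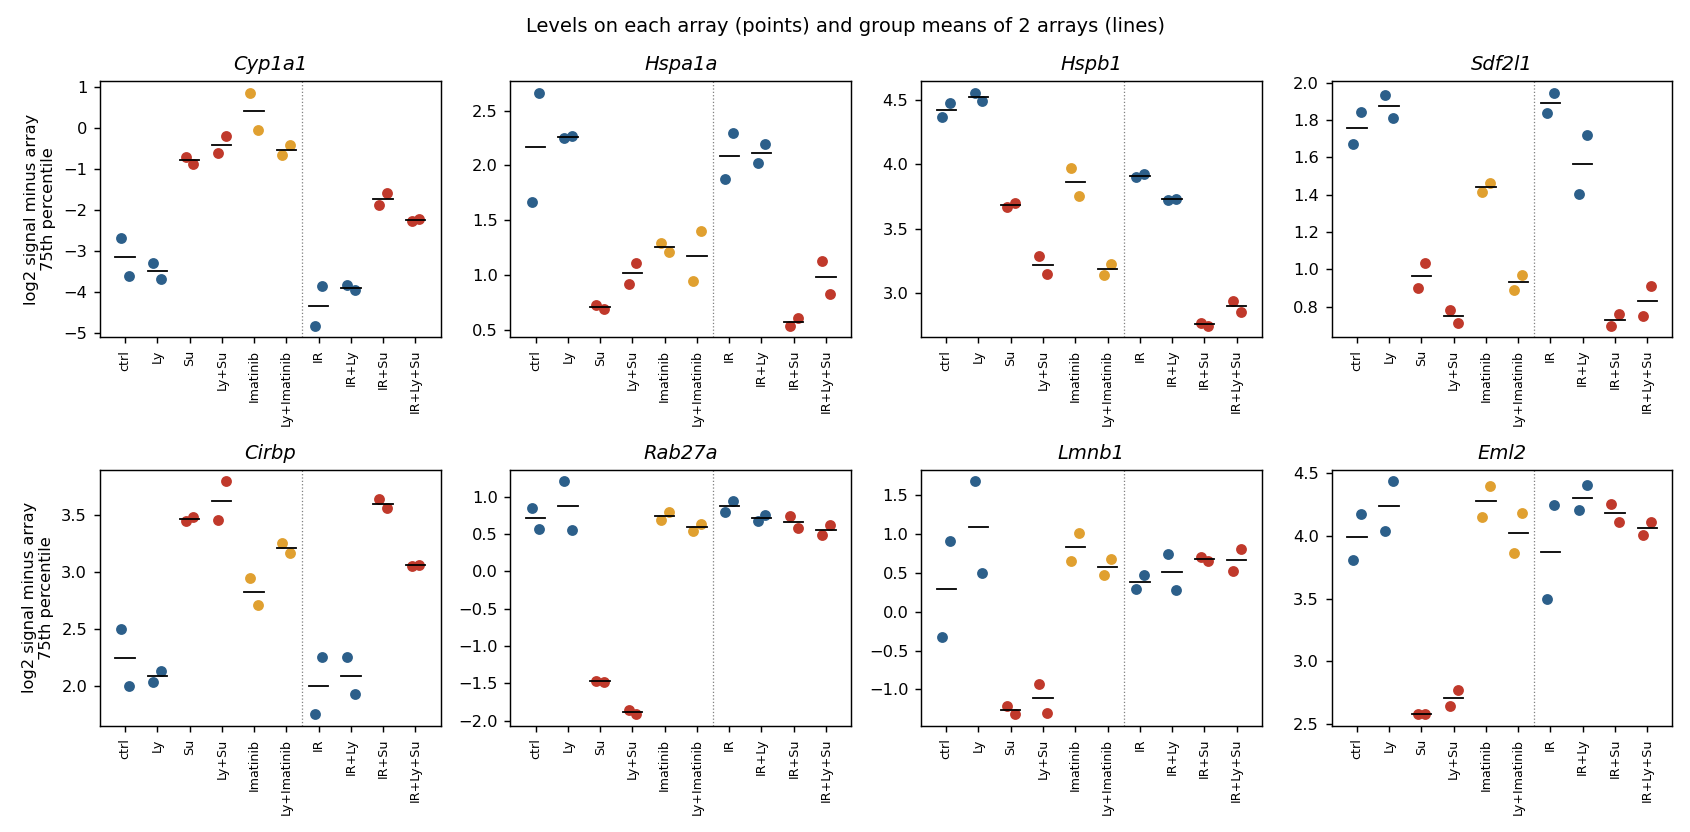
Levels of 8 genes on single arrays (points; log2 signal minus the array's 75th percentile) with group means of 2 arrays (lines), red for Su, yellow for Imatinib and blue for neither; the dotted line parts unirradiated from irradiated groups. Cyp1a1 and Cirbp are high with Su and the chaperones Hspa1a, Hspb1 and Sdf2l1 low with and without irradiation, whereas Rab27a, Lmnb1 and Eml2 are lowest on the 4 unirradiated Su arrays, where Rab27a lies between -1.92 and -1.47.

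Cytosolic and mitochondrial heat shock chaperones were lower with Su. All 18 tested members of this list were below 0, with a median difference of -0.56, and 12 of 18 fell while none rose. Of all genes tested, 54.7% were above 0 and 1.94% fell. Hspa1a, the stress-inducible HSP70, stood at 1.67, 2.66, 2.25 and 2.27 on the arrays without Su (ctrl 1, ctrl 2, Ly 1, Ly 2) and at 0.72, 0.69, 0.92 and 1.11 on those with it (Su 1, Su 2, Ly+Su 1, Ly+Su 2). The groups did not overlap, and the difference was -1.35 ± 0.20 (adjusted p = 0.0215). The 3 other tested probes named Hspa1a gave -1.53, -1.83 and -2.21, the last with an adjusted p of 0.0642. Hspa1a and its neighbour Hspa1b are nearly identical, so the probe signal may come from either gene.

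Hsph1, the HSP110 exchange factor of HSP70, read 3.57, 4.32, 4.22 and 4.28 without Su and 3.1, 3.05, 2.91 and 2.72 with it, a fall of 1.15 on the log2 scale (adjusted p = 0.0261). Hspb1, the small chaperone HSP27, read 4.37, 4.48, 4.55 and 4.49 without Su and 3.67, 3.70, 3.29 and 3.15 with it (-1.02 ± 0.13, adjusted p = 0.0177). In both genes every array with Su lay below every array without. The HSP90 pair Hsp90ab1 (-0.71 ± 0.11) and Hsp90aa1 (-0.50 ± 0.08), the cochaperones Stip1 (-1.0 ± 0.13), Fkbp4 (-0.74 ± 0.15) and Dnaja1 (-0.62 ± 0.11), and the mitochondrial partners Hspd1 (-0.42 ± 0.07) and Hspe1 (-0.39 ± 0.08) also fell. The constitutive HSP70 Hspa8 (-0.33 ± 0.33) and the HSP70 regulator Bag3 (-0.11 ± 0.08) did not pass.

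With Su 1 and Su 2 averaged, 8 of the 12 heat shock genes passed over the 12 unirradiated arrays, Hspb1 with the smallest adjusted p (0.0176), and 0 passed over the 7 samples of the main design with limma, where the smallest adjusted p in the list was that of Hspb1 (0.0674). The mean level of the 18 genes was higher on all 4 arrays of slide 1, which holds neither Su nor Imatinib, than on slides 2 and 3, which overlapped each other. It was 3.27 to 3.54 on slide 1, 2.89 to 2.91 for Su and 3.0 to 3.03 for Imatinib on slide 2, and 2.73 to 2.74 for Ly+Su and 2.78 to 2.90 for Ly+Imatinib on slide 3. Su against Imatinib within slides gave a median of -0.09 for the list, and Imatinib against the shared ctrl and Ly arrays gave -0.46. No member passed in either with limma (4 at an unadjusted p under 0.05 against Imatinib and 13 for Imatinib). Against the arrays without Su in irradiated lung, 6 of 18 fell (0.465% of all genes tested there fell), with a median of -0.58, among them Hspa1a (-1.32), Hsph1 (-1.40) and Hspb1 (-0.99). There too the arrays without Su or Imatinib share 1 slide, and the part of the slide in these differences was not tested.

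**Figure D2:**
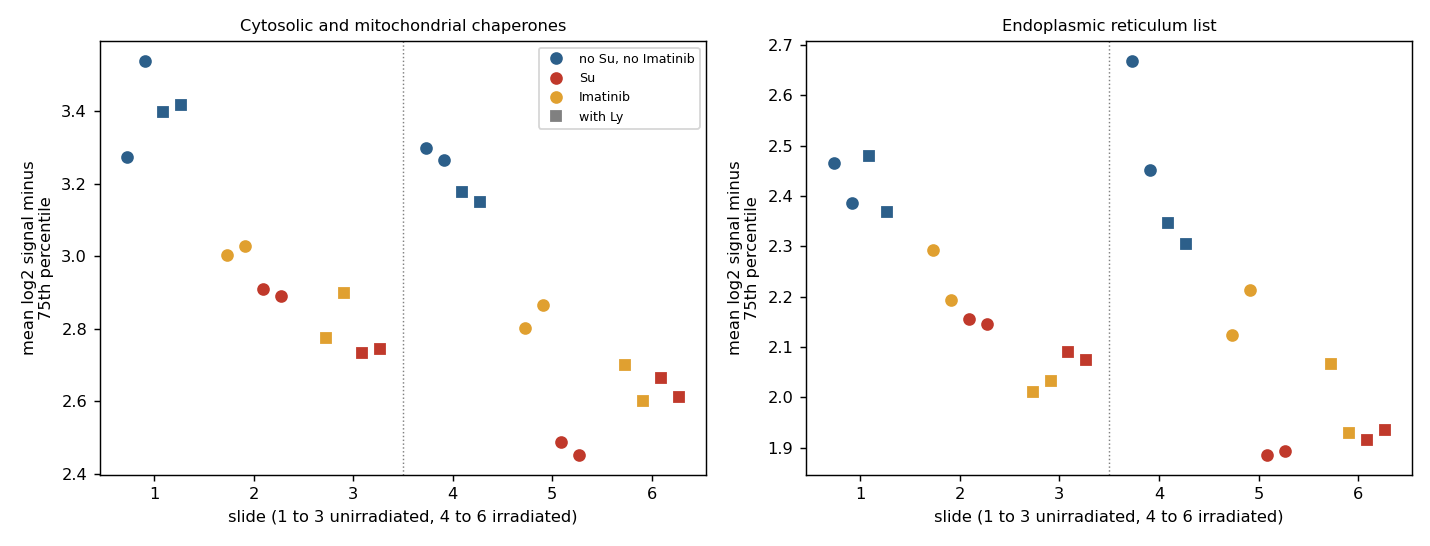
Mean log2 level of the 18 heat shock genes (left) and the 22 endoplasmic reticulum genes (right) on each of 24 arrays by slide, red for Su, yellow for Imatinib, blue for neither and squares for groups with Ly. On slide 1 the heat shock mean lies between 3.27 and 3.54, above all arrays of slides 2 and 3, and slide 4 stands above slides 5 and 6 in the same way.

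Chaperones of the endoplasmic reticulum were lower with Su as well, by less. Of 22 tested members, 21 were below 0, the median was -0.31, 6 fell (1.94% of all genes tested fell) and none rose. Sdf2l1, an unfolded protein response target, read 1.67, 1.85, 1.94 and 1.81 without Su and 0.90, 1.03, 0.78 and 0.71 with it. The groups were far apart, at -0.96 ± 0.10 (adjusted p = 0.0125; 0.0176 with the pair averaged over the 12 unirradiated arrays). Hspa5, which encodes BiP, read 5.26, 5.28, 5.28 and 5.21 without Su and 4.79, 4.83, 4.75 and 4.61 with it (-0.51 ± 0.07, adjusted p = 0.0192). Manf (-0.55), Creld2 (-0.45), the transcription factor Xbp1 (-0.45) and Ddit3, which encodes CHOP (-0.37), were the other members that fell. Sdf2l1 and Hspa5 were the 2 that still passed with the pair averaged over the 12 unirradiated arrays. Over the 7 samples of the main design no member passed (limma adjusted p = 0.0606 for Sdf2l1). In irradiated lung 6 of 22 fell with Su (0.465% of all genes tested there fell), Hspa5 by 0.94 and Sdf2l1 by 0.95. Within the unirradiated slides the list's median against Imatinib was 0.02.

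**Figure D3:**
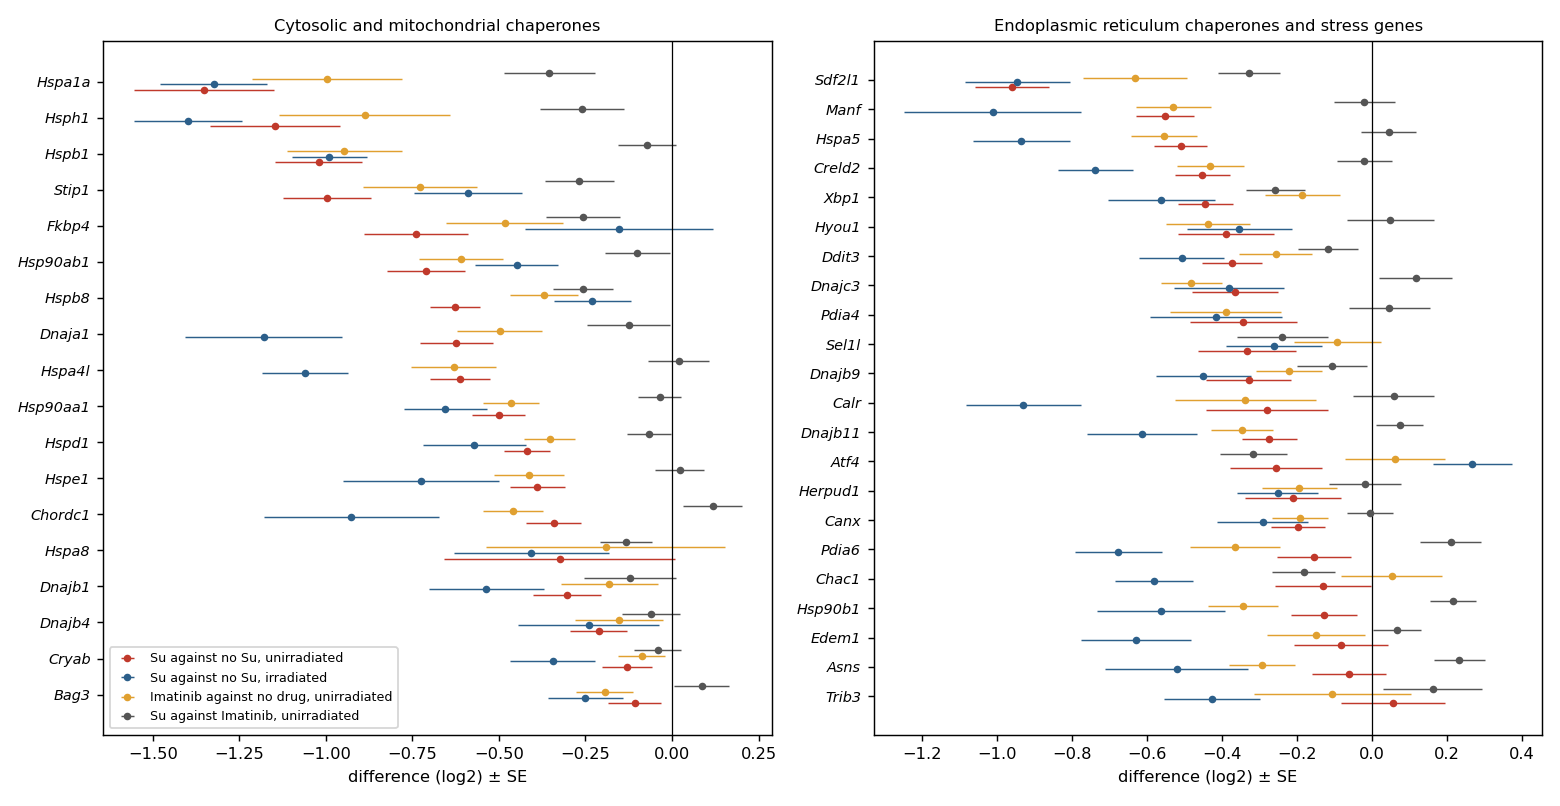
Difference (log2) ± SE of each tested chaperone or stress gene for Su in unirradiated lung (red), Su in irradiated lung (blue), Imatinib in unirradiated lung (yellow) and Su against Imatinib (grey). Red, blue and yellow points lie mostly left of 0, to -1.35 for Hspa1a with Su, and grey points scatter about 0.

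Cirbp, the cold-inducible RNA-binding protein, rose. It read 2.50, 2.00, 2.03 and 2.13 without Su and 3.45, 3.48, 3.46 and 3.80 with it. The groups did not overlap and differed by 1.38 ± 0.14 (adjusted p = 0.0125; 0.0606 with the pair averaged, 0.0185 over the 12 unirradiated arrays). In irradiated lung the difference was 1.28 (adjusted p = 0.0205), and Imatinib in unirradiated lung gave 0.85 (adjusted p = 0.101).

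Rab27a, Eml2 and Lmnb1 fell with Su and were also lower than with Imatinib on the same slides. Rab27a, a GTPase that docks secretory granules and lysosome-related organelles at the plasma membrane, read 0.85, 0.57, 1.20 and 0.55 without Su and -1.47, -1.48, -1.86 and -1.92 with it. That difference of -2.47 ± 0.18 (5.55-fold, adjusted p = 0.0107) was the largest of the 341 falls, and a second probe gave -1.12 (adjusted p = 0.0229). With Su 1 and Su 2 averaged, the limma adjusted p of Rab27a against no Su was 0.053, and 0.011 over the 12 unirradiated arrays. Beside Imatinib on the same slides Rab27a was lower by 2.35 on the log2 scale (adjusted p = 0.000104), and with Su 1 and Su 2 averaged by 2.37 (adjusted p = 0.000978). In irradiated lung Su gave -0.18 (adjusted p = 0.285), and the 2 effects differed by 2.29 ± 0.21 (adjusted p = 0.000573; 0.00152 with the pair averaged).

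Eml2, a microtubule-associated protein, read 3.81, 4.17, 4.04 and 4.44 without Su and 2.58, 2.58, 2.64 and 2.77 with it, a difference of -1.47 ± 0.12 (adjusted p = 0.0109). With the pair averaged the limma adjusted p was 0.056, and 0.0185 over the 12 unirradiated arrays. Against Imatinib on the same slides the difference was -1.51 (adjusted p = 0.00339, or 0.0207 with the pair averaged). Lmnb1, the nuclear envelope protein lamin B1, spread more on the arrays without Su, at -0.32, 0.92, 1.68 and 0.50 against -1.21, -1.32, -0.93 and -1.30. The difference was -1.88 ± 0.35 (adjusted p = 0.0352; 0.107 with the pair averaged and 0.0585 over the 12 unirradiated arrays), and -1.90 against Imatinib (adjusted p = 0.00302; 0.0177 with the pair averaged). In irradiated lung Su gave 0.03 for Eml2 and 0.22 for Lmnb1, and the difference between the effects passed for both (adjusted p = 0.0151 and 0.0312), though for Lmnb1 it was 0.0641 with the pair averaged.

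On shared slides 44 genes were higher (0.246% of 17877) and 123 lower (0.688%; 0.934% in all) with Su than with Imatinib, or 15 and 37 with the pair averaged. Of the 739 main genes also tested there, 63 passed in the same direction; both comparisons use the same 4 Su arrays. Camk2a, a neuronal calcium-dependent kinase at low level here, was among them: it read -4.96, -4.96, -5.28 and -4.46 without Su and -3.11, -3.14, -3.73 and -2.71 with it. It differed by 1.74 ± 0.25 from the arrays without Su and by 1.81 from Imatinib (adjusted p = 0.0357), and no longer passed the latter with the pair averaged (adjusted p = 0.139). Fibronectin, Fn1, differed from both as well (-0.62 and -0.50), as did Pecam1 (-0.67 and -0.62), with adjusted p of 0.113 and 0.123 within slides when the pair was averaged.

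The 12 largest rises by the naming rule were Cyp1a1, Camk2a, Prss35, Eprn, Cdrt4, Cirbp, Tmprss5, Cstad, Shisa2, Ccr3, C7 and Rxrg. Among them Rxrg, a retinoid X receptor, rose by 1.22 ± 0.17 from levels of -3.38, -3.30, -3.56 and -2.85 to -1.99, -2.05, -2.31 and -1.87. C7, a component of the terminal complement complex, rose by 1.26 ± 0.18. Ccr3, the eotaxin receptor of eosinophils, rose by 1.26 ± 0.18 but was above background on 1 array without Su. Prss35 was not well above background on any array without Su and is at least 2.05-fold higher, and Cdrt4 at least 1.3-fold. Under normexp background correction, however, the sign turned for Prss35 (-0.34), Cdrt4 (-0.50), Tmprss5 (-0.16) and Ccr3 (-0.16). Camk2a shrank to 0.19, Eprn to 0.34, Rxrg to 0.395 and Shisa2 to 0.66. Cyp1a1 was then at 1.68, Cirbp at 1.49, and Cstad and C7 at 1.08. In each of these 12 the arrays with and without Su did not overlap, which the rule required. Against Imatinib on the same slides Camk2a alone of the 12 passed. Shisa2 differed there by 0.22, and Imatinib against the shared ctrl and Ly arrays gave 1.06 for it (adjusted p = 0.0285, limma). All 12 passed with the pair averaged over the 12 unirradiated arrays, with adjusted p up to 0.0448. Over the 7 samples of the main design none of the 12 passed (limma adjusted p 0.0553 to 0.0982).

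The 12 largest falls by the naming rule were Rab27a, Lmnb1, Zfyve9, Hcn4, Olfr74, Hsd3b4, Mc4r, Irx1, Olfr414, Ocstamp, Eml2 and Chil4. Chil4, a chitinase-like protein of alternatively activated macrophages and airway epithelium, read 3.29, 3.65, 3.85 and 4.25 without Su and 2.00, 1.84, 2.91 and 2.46 with it (-1.46 ± 0.15, adjusted p = 0.0125). Irx1, a homeobox gene of the lung epithelium, fell by 1.54 on the log2 scale. Ocstamp, a fusion protein of osteoclasts and giant cells, fell by 1.49 by its brighter probe while the second probe gave -0.01. Olfr74 and the melanocortin receptor gene Mc4r were at low level, not well above background on 4 and 3 of the 4 arrays with Su, and Olfr74 was at least 1.43-fold lower. Zfyve9 was well above background on 1 of the 4 arrays with Su, and Hcn4, Hsd3b4 and Olfr414 on 2 each. Of these 12 falls, 6 passed with the pair averaged over the 12 unirradiated arrays. Over the 7 samples of the main design none of them passed, and the smallest limma adjusted p was that of Rab27a (0.053). Outside the rule and chosen after its values were seen, 1700019A02Rik was the gene that passed in all 8 fits that left out 1 array: it was not well above background on any of the 4 arrays with Su and was at least 1.33-fold lower.

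None of 16 PDGF ligands, receptors and related kinases passed with limma, and their median was 0.04. An unadjusted p under 0.05 was found for 4 of the 16 and for 26.9% of all genes tested. Pdgfra differed by 0.27 ± 0.12, Pdgfrb by 0.10 ± 0.09, Pdgfa by 0.20 ± 0.07, Pdgfb by -0.45 ± 0.24 and Kit by 0.19 ± 0.09, and Csf1r was nearest to passing (-0.38 ± 0.09, adjusted p = 0.0585). Of 15 VEGF and angiopoietin genes, 2 rose (2.45% of all genes tested rose) and 13 did not pass. Angpt2, the TIE2 ligand released by activated endothelium, read 0.81, 0.51, 0.46 and 0.50 without Su and 1.44, 1.37, 1.43 and 1.59 with it (0.88 ± 0.10, adjusted p = 0.015; 0.0674 with the pair averaged). Kdr, the main VEGF receptor, rose by 0.35 ± 0.08 (adjusted p = 0.0493), but passed in none of the 8 fits that left out 1 array (adjusted p 0.0644 to 0.165, limma). With the pair averaged none of the 15 passed, and Angpt2 alone did over the 12 unirradiated arrays. Flt1 (-0.07), Flt4 (-0.01) and Vegfa (0.00) did not pass. Against Imatinib on the same slides Angpt2 differed by 0.04 and Kdr by 0.07. Imatinib against the shared ctrl and Ly arrays gave 0.85 for Angpt2 and 0.29 for Kdr. None of these differences passed with limma.

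Of the TGF-beta ligands, receptors and SMADs, Tgfb2 rose by 0.61 ± 0.09 and the other 27 of 28 did not pass, among them Tgfb1 (-0.23 ± 0.12), Tgfbr1 (-0.18 ± 0.11) and Tgfbr2 (0.15 ± 0.07). Of 39 collagen and matrix genes 6 fell (1.94% of all genes tested fell) and none rose. The list's median was -0.14, close to 0 (0.00) under normexp background correction. The 6 were the collagen cross-linking oxidase Lox (-0.91 ± 0.11), the prolyl hydroxylase P4ha1 (-0.67 ± 0.10), the collagen chaperone Serpinh1 (-0.66 ± 0.09), Fn1 (-0.62 ± 0.09), Col4a2 (-0.59 ± 0.12) and elastin, Eln (-0.48 ± 0.07). Of the 6, Fn1 alone also passed against Imatinib on the same slides (-0.50). There Lox was at 0.04, P4ha1 at -0.18 and Serpinh1 at -0.19. Imatinib against the shared ctrl and Ly arrays gave -0.95 for Lox. The fibrillar collagens Col1a1 (-0.03 ± 0.12) and Col3a1 (0.04 ± 0.12) and smooth muscle actin Acta2 (-0.36 ± 0.15) did not pass. P4ha1, Serpinh1 and Fn1 still passed with the pair averaged over the 12 unirradiated arrays. No gene of the collagen and matrix list passed over the 7 samples of the main design with limma.

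Among cell type markers, B cell genes were mostly higher and macrophage genes mostly lower with Su. Of 24 B cell and plasma cell markers 18 were above 0 and the median was 0.43. In this list 6 rose, among them Cr2 (0.79), Bank1 (0.75) and Ms4a1 (0.54), and Xbp1 fell. Of all genes tested, 54.7% were above 0 and 2.45% rose. Under normexp background correction Cr2 turned to -0.13 and Bank1 was at 0.35. Bank1, a B cell adaptor, read -1.95, -2.40, -1.91 and -1.88 without Su and -1.42, -1.27, -1.27 and -1.20 with it. The groups did not overlap, but no B cell gene passed with the pair averaged, in either design (limma), the adjusted p of Bank1 being 0.0836 and 0.0926. Imatinib gave a list median of 0.64 and Su in irradiated lung 1.07. The mean level of the 24 genes was -0.89 to -0.10 on the arrays without Su and -0.26 to -0.11 on those with it, so these ranges overlapped.

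Of 29 macrophage and monocyte markers, 23 were below 0, the median was -0.36 and 3 fell, where 54.7% of all genes were above 0 and 1.94% fell. The 3 were Chil3 (-1.07 ± 0.19), the lysosomal marker Cd68 (-0.59 ± 0.12) and the alveolar macrophage lectin Siglecf (-0.45 ± 0.09). None of the 3 passed with the pair averaged over the 12 unirradiated arrays. The related gene Retnla, which marks alternative activation, went the other way: it read 2.82, 2.90, 2.14 and 2.76 without Su and 4.05, 4.06, 3.12 and 3.08 with it (0.92 ± 0.17, adjusted p = 0.031; 0.113 with the pair averaged and 0.426 over the 12 unirradiated arrays). All 15 neutrophil genes were below 0, with a median of -1.10, and none passed with limma (3 at an unadjusted p under 0.05). Array Ly 1 had a mean level of 1.95 for them, against -1.57 to -0.13 on the other arrays without Su and -1.44 to -1.05 with it. The 18 cardiac muscle genes that line pulmonary veins had a median of 1.18 and none passed with limma (3 at an unadjusted p under 0.05), their mean level lying between -2.70 and 0.09 without Su and between -1.31 and 0.46 with it. The part of these markers in other results was not tested.

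**Figure D4:**
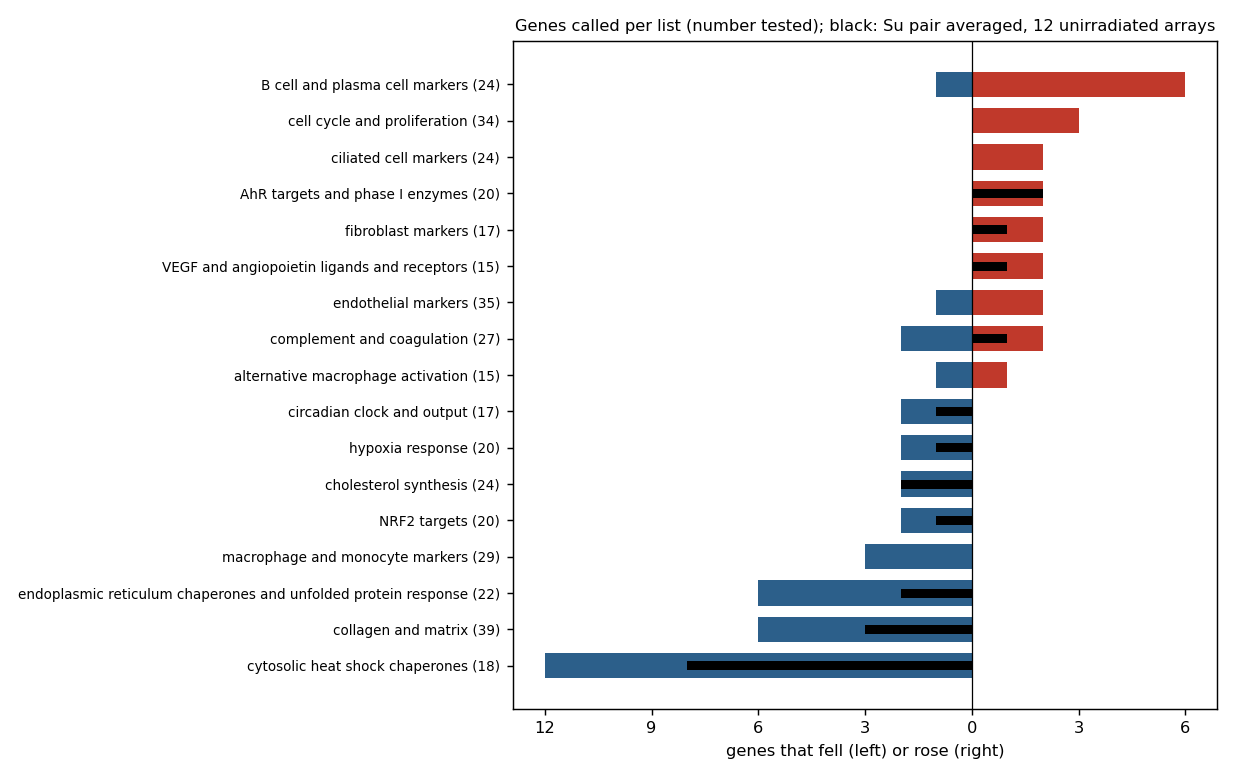
Number of genes that fell (blue, left) or rose (red, right) with Su in unirradiated lung in each list with more than 1 such gene, the number tested in parentheses; black bars count genes that passed with Su 1 and Su 2 averaged over the 12 unirradiated arrays. The heat shock list stands out with 12 of 18, or 8 in the black bar, and the 6 B cell genes have no black bar.

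By arm, 212 genes (1.21%) differed between Su and ctrl (80 higher, 0.456%, and 132 lower, 0.752% of 17545). Between Ly+Su and Ly 12 differed (5 higher, 0.0285%, and 7 lower, 0.0399%). With the pair averaged, 6 and 0 passed (1933 at an unadjusted p under 0.05 between Ly+Su and Ly, limma). The difference of the Su effect with and without Ly passed for 12 genes (0.0684% of 17545; 9 upward, 0.0513%, and 3 downward, 0.0171%), and for 0 with the pair averaged (787 at an unadjusted p under 0.05, limma). Rab27a was lower in both arms (-2.18 and -2.76) and Cyp1a1 higher in both.

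The genes that passed were followed by sign and by test in the irradiated comparison, which shares no array with the unirradiated one. In both comparisons, however, the arrays with and without Su lie on different slides. The part of the slide in the shared signs and shared calls was not tested. In irradiated lung 501 genes (2.48% of 20224) passed, 407 higher (2.01%) and 94 lower (0.465%) with Su, or 180 and 78 after quantile normalization. That count fell to between 64 and 267 when IR 2, IR+Ly 2 or any of the 4 irradiated Su arrays was left out, and was 1502 without IR 1. Arrays IR+Ly+Su 1 and IR+Ly+Su 2 also stood apart in their dim signals. There 77.89% and 75.89% of signals were well above background, against 63.68% to 66.57% on the IR, IR+Ly and IR+Su arrays. The median of the negative controls was 2.65 and 2.95, against 6.75 to 12.38. The part of this in the irradiated counts, and in the differences between lungs, was not tested. Of the 429 genes higher with Su without irradiation, 353 (82.3%) were above 0 with irradiation, against 8409 of all 17499 genes (48.05%), and 19 passed (4.43%, against 1.29% of all genes). Of the 339 lower genes tested in both, 190 (56.05%) were below 0, against 51.95% of all genes, and 23 passed (6.79%, against 0.486% of all genes). Whether higher and lower genes differ in this was not tested. None passed in the opposite direction. The 255 genes kept with the pair averaged over the 12 unirradiated arrays gave 96 of 112 higher genes and 79 of 143 lower genes with the same sign, of which 11 and 15 passed. Across all genes the 2 differences correlated at r = 0.09, a description over genes that are not independent.

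**Figure D5:**
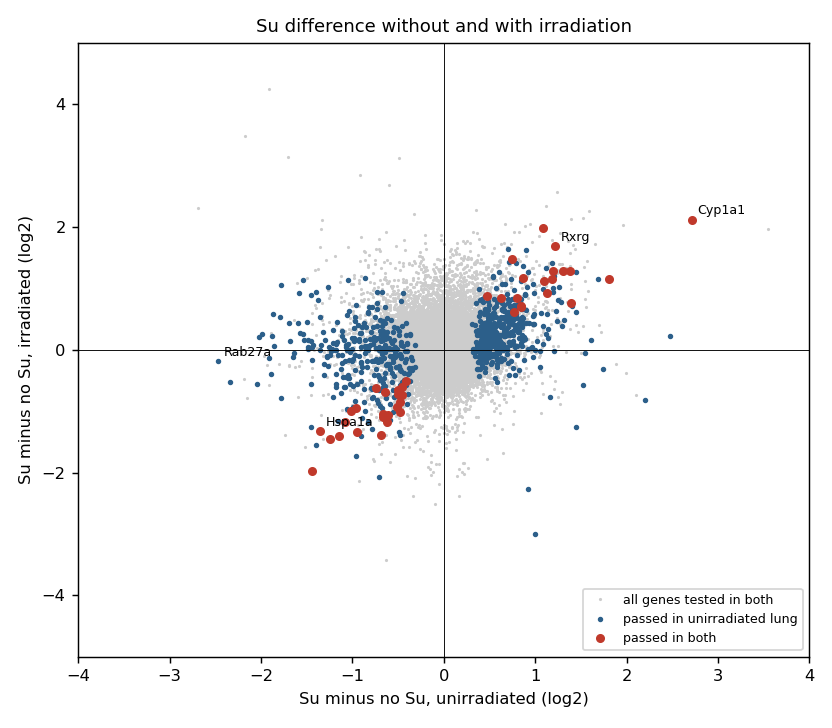
Su minus no Su (log2) in unirradiated lung (x axis) and irradiated lung (y axis), grey for 17499 genes tested in both, blue for those that passed without irradiation and red for the 42 that passed in both. Red points lie at the upper right and lower left, Cyp1a1 at 2.71 and 2.12, while Rab27a lies near 0 on the y axis.

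The Su effect itself differed between irradiated and unirradiated lung for 338 genes (1.67% of 20270; 261 upward, 1.29%, and 77 downward, 0.38%), or 109 with the pair averaged, and 61 of them were among the 770. Rab27a, Eml2 and Lmnb1 are described above. Retnla differed by 0.92 without irradiation and by -2.27 with it, where it did not pass (adjusted p = 0.0557). The difference between the effects passed (difference -3.19 ± 0.53, adjusted p = 0.0171; 0.0445 with the pair averaged). The clock repressor Cry1 fell by 0.85 on the log2 scale without irradiation and was at 0.00 with it (adjusted p of the difference 0.0399; 0.0552 with the pair averaged). E2f4, a cell cycle repressor, was the reverse case: Su gave -0.02 without irradiation and 1.13 with it (difference adjusted p = 0.00206). Its levels were -3.32 to -3.02 with irradiation and Imatinib and -3.22 to -2.83 with irradiation and Su. With irradiation and neither drug they were -4.21 to -4.09. The Imatinib and Su groups share their slides, and the irradiated arrays with neither drug lie on another slide. 9330133O14Rik was the gene that passed in the same direction against no Su, against Imatinib and in irradiated lung (0.85, 0.65 and 0.71; against Imatinib adjusted p = 0.0163, or 0.0531 with the pair averaged), at levels near background and with the sign turned to -0.45 under normexp background correction.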

How the data were processed

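Arrays were 1-colour Agilent mouse arrays, 2 per group. The deposited values are the intensity of each spot as the scanner software gave it, background-corrected and scaled by Feature Extraction 9.1.3.1 per the file headers. The series table that the authors deposited holds the same intensities multiplied by a constant. It was also run as a setting, after taking log2. Here log2 of the processed intensity minus the array's 75th percentile was used, which leaves differences in total RNA out of sight. Control spots and 619 probes with outlier spots were dropped, and 40555 remained, 1 per gene (the brightest) for 27401 genes. Of these probes, 22550 were named by accession, 6572 by symbol and 3068 by synonym through RefSeq, and 8365 kept the file's name. A gene was tested if well above background on both arrays of at least 1 group compared.

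Differences were tested with limma 3.58.1 (R 4.3.3), with Ly as a term, and Benjamini-Hochberg adjusted p under 0.05 over all genes tested counted as passing. Genes were named by rule: the 12 highest and 12 lowest passing genes with a symbol whose arrays did not overlap and that were above background throughout the higher side, up to 3 passing genes per list, genes passing in the 3 Su comparisons, the 5 smallest p of each difference between effects, and 18 fixed genes. Other list members are named where a list is described, with their values in view. The members and lists were chosen with earlier results of these data known. A gene not above background on 1 side has a bound: the bright mean over the higher of the dimmest signal above background and its own. Procedures were tested on simulated data.

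The 75th percentile of intensity was 704 to 1768 on 23 arrays and 2518 on IR 1, and the number of arrays limits the precision. Deviations of same-numbered arrays correlated at -0.235 to 0.169 over 6 pairs of groups, 3 of them over 0.1, so the numbers were not taken to pair arrays. Alternatives covered normalization, background, filter, probes, arrays in the fit, blocks and arrays left out. Averaging Su 1 and Su 2 was chosen after seeing the data. A result that rests on a withheld item is not reported here.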

Additional observations from a re-analysis of the deposited data

Results flagged for a closer look

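The effect of Su differed with and without Ly for 12 genes. With the effect in the presence of Ly minus that in its absence, the 5 with the smallest p were Azgp1 (2.91, adjusted p = 0.00651), C1s2 (-7.64, adjusted p = 0.00651), Olfr360 (3.02, adjusted p = 0.0136), A930019D19Rik (-4.20, adjusted p = 0.0136) and Tm4sf4 (3.21, adjusted p = 0.0223), by limma. C1s2, a complement protease gene, was at 0.22 and 0.00 on arrays Su 1 and Su 2 and below -6 on the other 6, and Azgp1 was lowest on the same pair, at -1.76 and -1.83. These are the 2 arrays that differ less than any other pair, and with them averaged none of the 12 passed. C1s2 was well above background on that pair alone and entered the test only through it. A930019D19Rik was well above background on Ly 1 and Ly 2 alone (-2.95 and -3.58) and entered the test only through these. With Su it lay at -7.57 to -7.38, not well above background on any array.

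Between irradiated and unirradiated lung the effect of Su differed for 338 genes. As irradiated minus unirradiated, the difference was 2.51 for Cep20 and 2.84 for Tnfsf12 (adjusted p = 6.87e-05 for both), 2.72 for 4930544G11Rik (adjusted p = 0.00103) and 1.15 for E2f4 (adjusted p = 0.00206). Cep20, Tnfsf12 and 4930544G11Rik were not well above background on any of the 8 unirradiated arrays. Of the 8 irradiated arrays, Cep20 and Tnfsf12 were well above background on 4, those with Su. Without Su, Cep20 lay at -7.76 to -7.497 there and Tnfsf12 at -7.737 to -7.124. Both genes thus entered the test only through the irradiated Su arrays. 4930544G11Rik was well above background on 6 of the 8. In irradiated lung the levels of each of these genes with Imatinib overlapped those with Su on the same slides. Cep20 was at -5.279 to -4.718 with Imatinib and at -5.293 to -4.781 with Su. Tnfsf12 was at -5.237 to -4.069 and -4.882 to -3.944, and 4930544G11Rik at -3.342 to -2.941 and -3.412 to -3.003. Su against Imatinib in irradiated lung was not tested. Among genes that fell with Su without irradiation, the difference was 2.29 for Rab27a, 2.11 for Lmnb1, 2.52 for Mc4r, 1.69 for Olfr414, 1.94 for Ocstamp, 1.51 for Eml2 and 0.85 for Cry1. Among genes that rose, it was -1.60 for Prss35 and -3.19 for Retnla. With Su 1 and Su 2 averaged, Lmnb1 (adjusted p = 0.0641), Olfr414 (0.0641), Mc4r (0.0552), Cry1 (0.0552) and Prss35 (0.094) no longer passed in limma. In both lungs the arrays with and without Su lie on different slides, and the part of the slide was not tested.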

How the results depend on the processing

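Counts of genes passing moved widely, and the cause was not tested. For Su against no Su (770), 0 passed under normexp background correction, 213 with no filter (83 higher, 130 lower), 1266 with 24 arrays in the fit, 478 with the replicate block, 1485 with slide as a random block, 1733 with 12 arrays, and 3 and 302 with the Su pair averaged; without single arrays it was 1 to 910. Same-numbered arrays are not shown to be paired, so the block carries no pairing. The Su against ctrl count was 0 with normexp, 9 with no filter, 83 with genes above background on all arrays, 106 with every probe, 606 with 24 arrays and 6 with the pair averaged (5 to 354 without single arrays). For Ly+Su against Ly it was 0, 4, 3, 173 and 0 with normexp, no filter, all above background, 24 arrays and the pair averaged (0 to 58 without single arrays), and for the difference between these effects 0, 3, 2, 126 and 0 (0 to 51).

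Su against Imatinib gave 3 with normexp, 76 with no filter, 324 with every probe, 91 with the replicate block and 52 with the pair averaged (44 to 412 without single arrays). Imatinib gave 10 with quantile normalization, 0 with normexp or no filter, 190 with 24 arrays, and 0 without any 1 of its 8 arrays. Irradiated Su gave 258 with quantile normalization, 0 with normexp, 291 with no filter, 250 above background throughout, 753 with every probe, 5139 with 24 arrays and 231 with the replicate block (64 to 1502 without single arrays). The irradiated minus unirradiated difference gave 148, 2, 191, 190 and 2251 with quantile, normexp, no filter, all above background and 24 arrays, and 109 with the pair averaged (95 to 718). Counts of 0 are from limma. Under normexp, 159 to 3175 genes still had an unadjusted p under 0.05 in the 6 comparisons with none passing.

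Normexp turned the sign of Prss35 (-0.34), Cdrt4 (-0.50), Tmprss5 (-0.16), Ccr3 (-0.16), Ahrr (-0.58), Cd28 (-0.56), Cr2 (-0.13), Cenpa (-0.091), Cenpf (-0.24), F8 (-0.66) and 9330133O14Rik (-0.45). It moved the median of all genes to -0.07 in the main comparison and to 0.20 in the difference between lungs. No other setting turned the sign of a named gene that had passed. Of 77 named genes that passed, 39 did so with the pair averaged over 12 arrays. Low signal limits genes near background: 58 of the 770 have only a bound.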

Other observations

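Further lists held few genes that passed. Of all genes tested 2.45% rose and 1.94% fell. The clock repressors Cry1 (-0.85 ± 0.14) and Per2 (-0.56 ± 0.09) fell among 17 clock genes. Per2 read 0.47, 0.43, 0.20 and 0.42 without Su and -0.25, -0.26, -0.11 and -0.09 with it, so the groups did not overlap, and with the pair averaged over the 12 unirradiated arrays its adjusted p was 0.157 (limma). Hmox1, the inducible heme oxygenase, and Osgin1 fell among 20 NRF2 targets. Hmox1 read 1.55, 1.90, 2.09 and 2.03 without Su and 0.36, 0.45, 1.06 and 1.32 with it (-1.09 ± 0.13). Its limma adjusted p was 0.0189 with the pair averaged over those 12 arrays, and 0.0754 over the 7 samples of the main design.

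All 22 glucocorticoid response genes were below 0, with a median of -0.41, and Map3k6 (-1.24 ± 0.19) passed; Imatinib gave a median of -0.42 for this list. Pmvk (-0.67) and Tm7sf2 (-0.63), enzymes of cholesterol synthesis, fell among 24, Agpat2 (-0.55) among 18 lipid genes and Cidec (-0.84), a lipid droplet protein, among 14 adipocyte markers. Tm7sf2 and Agpat2 also differed from Imatinib on the same slides (-0.59 and -0.49), though not with the pair averaged (adjusted p = 0.126 and 0.111). Ccl6, a macrophage chemokine, fell by 0.95 on the log2 scale, and by 1.33 in irradiated lung. The mitotic genes Cenpa, Cenpf and Ccnb2 rose (0.69, 0.53 and 0.40) among 34, none with the pair averaged over the 12 arrays, and the first 2 turned sign under normexp. Wnt2 (0.80) and Meox2 (0.66) rose among 17 fibroblast markers, Emcn (0.58) and Lmo2 (0.48) rose and Pecam1 fell among 35 endothelial markers. Of 33 T and NK cell markers 29 were above 0, as were 54.7% of all genes, and 1 rose, Cd28 (0.50), near the 2.45% of all genes and with its sign turned to -0.56 under normexp. No gene of the interferon (34) or p53 (26) lists passed in limma, with 8 and 4 at an unadjusted p under 0.05, as for 26.9% of all genes.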
